A study of Rattus norvegicus with 35 samples.

Results

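Apoptosis regulators and caspases were followed on Affymetrix arrays of the rat genome as 20 probe-sets of 7 genes: Bcl2 (3 probe-sets), Bcl2l1 (4), Bad (2), Bcl2l11 (4), Casp1 (3), Casp2 (3) and Fas (1). They were all the probe-sets whose only current rat symbol was on a list of 9 genes, out of 8740 probe-sets tested, and the 7 genes are among 4736 with a probe-set of their own. Mcl1, the remaining gene of the list besides Bax, had no probe-set with its symbol, and the 3 probe-sets of Bax carry the symbols of both Bax and LOC681314, so they are described apart and not counted. Cells came from the ventricles of neonatal rats and were grown either as cultures enriched for cardiac myocytes (CM) or as cultures of fibroblasts (FB). The CM cultures were kept in horse serum, whereas the FB cultures were subcultured and kept longer, in foetal bovine serum. Between these populations, cell type and culture conditions cannot be told apart. The stressors were ultraviolet radiation (UV, 10 J/m2 UVC), ionising radiation (IR, X-rays at 8.5 Gy) and mechanical stress (MS, cyclic stretch on collagen-coated plates for 24 h). RNA was taken 24 h after the irradiation or the start of stretch. Controls were sham-irradiated, or grown on the same plates without stretch. For UV and IR the CM cultures, treated and control, were also fractionated by centrifugal elutriation before RNA was isolated, whereas FB cultures and the CM cultures of the MS experiments were not, and none of these populations was pure. Every group held 3 arrays except the UV controls of CM, with 2, which makes 35 arrays in 12 groups.

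Apoptosis through mitochondria is set by proteins of the BCL-2 family. Members that favour survival (Bcl2 and Bcl2l1, the gene of Bcl-xL) hold in check the effectors Bax and Bak, which permeabilise the outer mitochondrial membrane, and a further class, the BH3-only proteins (Bad and Bcl2l11, the gene of Bim), counters the survival proteins. Caspases are the proteases that follow: Casp2 is an initiator caspase linked to DNA damage, and Casp1 is the inflammatory caspase that matures interleukin-1 beta. Fas is the death receptor for Fas ligand and activates caspases from the cell surface. Cardiac myocytes are known to be rather resistant to apoptosis, and transcription of several of these genes, Bax and Fas among them, is under the control of p53 in other mammalian cells.

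Values are normalised intensities, and a change is the log2 ratio of treated over control within numbered experiments (pairs), given with its standard error (SE) and a p-value of limma adjusted by Benjamini-Hochberg over all 8740 probe-sets. A call means an adjusted p under 0.05. Values below 6.88, the 20th percentile of all scaled values, were set to that floor and have no order among themselves. For CM after UV only 2 of the 3 treated arrays had a control of the same number, so this change rests on 2 pairs. Intensities of different probe-sets were not compared with each other. In these bulk samples, fewer cells of a type and less RNA per cell cannot be told apart. The deposited scale was higher for 9 arrays, 6 of CM from the IR experiments (all there are) and 3 of CM from the UV experiments (trimmed mean 981, against 196 on the other 26 arrays). Arrays were brought to one scale here, but in the IR experiments scale and cell population cannot be told apart. Within each pair the scale was the same.

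Marker genes of several cell types were called after UV, some of the lists at shares near those of all genes. A gene with several probe-sets needed a call in at least 50% of them. Of all 4736 genes, 10.2% were called higher and 9.21% lower in CM by this rule, and 13.9% and 13.0% in FB. The summed intensity of 10 cardiac myocyte markers was 8251 to 11597 in UV-treated FB, against 19173 to 22672 in their controls, and 8 of the 10 genes were called lower. In CM the sum was 46578 to 50626 after UV, against 55575 to 57435 in controls, and 2 genes were called lower. The sum of 10 fibroblast markers was 7574 to 12563 in UV-treated CM, against 12206 to 17843 in CM controls, with 4 genes lower, and 31941 to 36911 in UV-treated FB, against 40028 to 43981 in FB controls, with 3 lower. Of the 8 immune markers on the array, 2 were called higher in FB after UV (Cd14 and Csf1r) and 1 was called lower in CM (Itgam), with sums of 348 to 381 in UV-treated FB, against 237 to 287 in FB controls. Of the immune markers, Cd74 was at the floor on every UV-treated FB array, and Cd74, Itgam and Cd8a were on every FB control of UV. No myocyte or fibroblast marker was at the floor throughout a group. No marker gene of any of the 5 lists was called after IR or MS. The sum of 4 smooth muscle or myofibroblast markers was 3217 to 4506 in UV-treated FB, against 6584 to 7331 in FB controls, with 3 genes called lower (Acta2, Tagln and Cnn1). In CM it was 3231 to 3557 after UV, against 4765 to 5186 in controls, with Acta2 and Tagln lower. None of the 3 endothelial markers on the array was called after UV. The part of these shifts in the results below was not tested.

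After UV, 6 of the 20 probe-sets were called higher in CM and none lower, and 4 were called higher in FB and none lower. Over all probe-sets, 8.62% were called higher in CM and 11.7% in FB, and 8.16% and 11.2% were called lower. The median change of the 20 probe-sets was 0.21 in CM and 0.05 in FB, on the log2 scale, against 0 over all probe-sets in each. All the calls lay in 2 genes, Bcl2l11 in both populations and Casp2 in CM.

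After IR and MS, none of the 20 was called in either population. The background of calls there was 0.732% in CM and 0.0801% in FB after IR, and 0% in both after MS. At an unadjusted p under 0.05, the number among the 20 was 3 in CM and 6 in FB after IR, with 11.4% and 6.85% of all probe-sets below that value, and 2 in CM and 0 in FB after MS, with 4.74% and 5.35% of all. The treated and control groups of a comparison failed to overlap for some of these: after IR 1 probe-set was wholly higher and 1 wholly lower in CM (4.35% and 4.11% of all), and 5 were higher and 0 lower in FB (2.39% and 2.2% of all). After MS the counts were 1 higher and 2 lower in CM (3.35% and 3.66% of all), and 2 higher and 1 lower in FB (2.72% and 2.43% of all). After UV they were 6 higher and 1 lower in CM (16.6% and 15.3% of all), and 5 higher and 1 lower in FB (15.9% and 13.9% of all). Counts of 1 or 2 among 20 say nothing about the members, and probe-sets of the same gene are not independent.

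**Figure D1:**
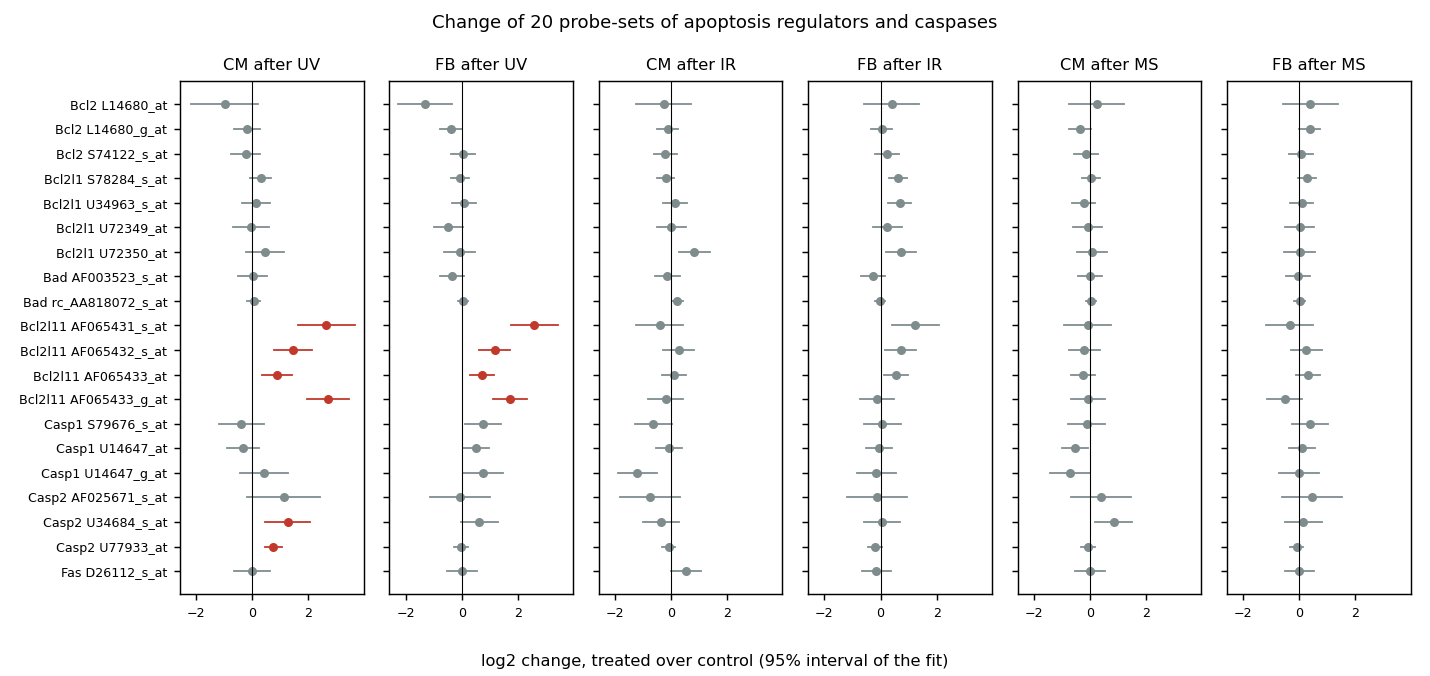
Change of each of the 20 probe-sets (rows, grouped by gene) in the 6 comparisons (panels). Points are log2 changes, treated over control, lines are the 95% intervals of the fit, and red marks an adjusted p under 0.05. Red points appear in the UV panels alone, 6 in CM and 4 in FB.

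Bcl2l11 encodes Bim, a BH3-only protein that binds the survival proteins and is held low in many cells until stress. It lies on chromosome 3. All 4 of its probe-sets rose after UV in both populations. Probe-set AF065431_s_at read 127, 70.1 and 64.5 in UV-treated CM, against 9.76 and 23.5 in CM controls. The lowest treated array was above the highest control. The change was 2.64 (SE 0.47, adjusted p = 0.0022), higher in 2 of 2 pairs. In FB the same probe-set read 38.4, 32.9 and 54.6 after UV, while all 3 controls were at the floor. The mean level was therefore at least 5.96-fold higher in UV-treated FB than in FB controls (adjusted p = 0.0003, higher in 3 of 3 pairs).

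The other probe-sets moved the same way by different amounts. AF065433_g_at read 65.6, 36.2 and 22.1 in UV-treated CM, against 7.19 and 7.68 in controls, a change of 2.71 (SE 0.34, adjusted p = 0.0002). In FB it read 22.4, 18.3 and 29.1 after UV, against 6.97 on 1 control and the floor on the other 2 (change 1.73, SE 0.28, adjusted p = 0.0006). With controls this close to the floor, both sizes depend on where the floor was set, and in FB the call was lost with the floor at the 40th percentile (adjusted p = 0.85).

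AF065432_s_at read 115, 74.4 and 75.9 in UV-treated CM, against 31.5 and 36.5 in CM controls, a change of 1.45 (SE 0.31, adjusted p = 0.0070). In FB it read 35.7, 53.6 and 73 after UV, against 16.8, 23.8 and 30.3 in controls, a change of 1.17 (SE 0.25, adjusted p = 0.0044). In neither population did the groups overlap. AF065433_at read 216, 159 and 117 in UV-treated CM, against 105 and 97.3 in CM controls (means 164 ± 49.9 after UV and 101 ± 5.52 in controls, SD, n = 3 and 2, change 0.88, SE 0.24, adjusted p = 0.0264). In FB it read 105, 95.7 and 161 after UV, against 71.5, 66.0 and 76.4 in controls (means 121 ± 35.5 after UV and 71.3 ± 5.17 in controls, SD, n = 3 each, change 0.72, SE 0.20, adjusted p = 0.0178). Again no treated array lay below a control array.

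**Figure D2:**
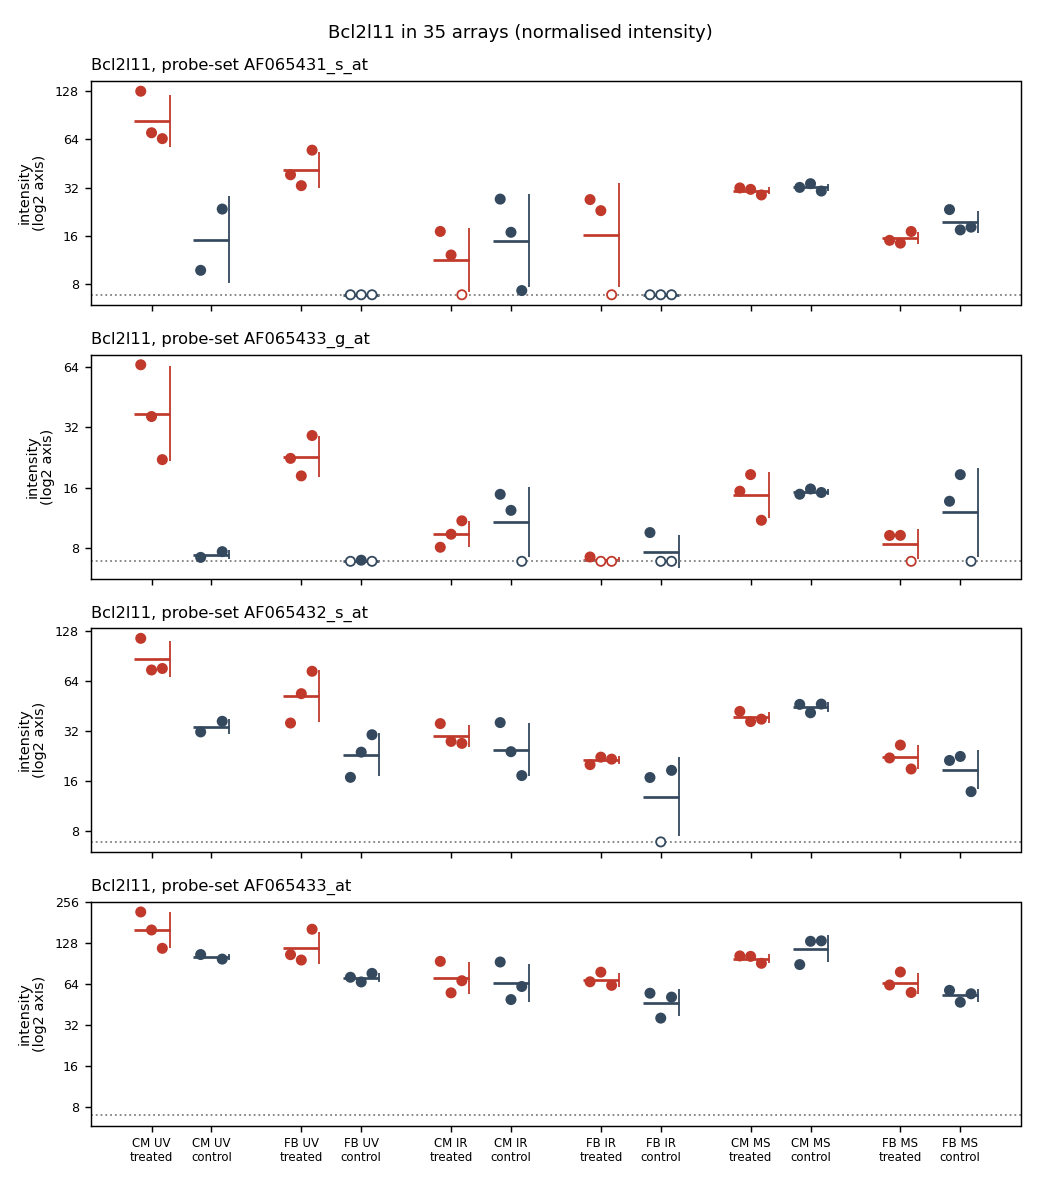
Normalised intensity of the 4 probe-sets of Bcl2l11 (log2 axis) in all 35 arrays, treated groups in red and controls in dark blue. Horizontal bars are means of log2 values, vertical lines 1 SD, open circles values at the floor of 6.88 (dotted line). UV-treated arrays stand above their controls in every panel, with CM at 64.5 to 127 and FB at 32.9 to 54.6 for AF065431_s_at.

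The 4 probe-sets measure 1 gene and are not independent. Over the 17 pairs, the changes of any 2 of them correlated with Pearson's r between 0.56 and 0.86 (a description). With the arrays numbered 1 left out of all groups, the CM change after UV comes from a single pair with 1 control array, which is assumed to vary like the other groups. The changes of AF065431_s_at and AF065432_s_at were then 1.58 and 1.03, with adjusted p = 0.19 and 0.32. That of AF065433_g_at was 2.24 with adjusted p = 0.0634. AF065433_at in CM lost its call with each of the 3 experiments left out in turn (adjusted p = 0.37, 0.0793 and 0.0640) and without the pairing (0.16). In FB, AF065431_s_at kept its call under all 9 alternatives run for it, whereas AF065432_s_at and AF065433_at lost it without the first experiment (adjusted p = 0.0688 and 0.11) or the third (0.0781 and 0.22).

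Whether the response of Bcl2l11 to UV differed between the populations depended on the floor. The difference of the changes, CM minus FB, was 0.27 for AF065432_s_at (95% interval -0.60 to 1.15) and 0.15 for AF065433_at (-0.53 to 0.83), neither of them called. For AF065433_g_at, with 2 FB controls at the floor, it was 0.99 (adjusted p = 0.24). For AF065431_s_at, with all FB controls at the floor, the FB change has only a lower bound and the difference was not measured. With the floor at the 40th percentile both of these probe-sets were called higher in CM. The fitted differences were 1.18 for AF065431_s_at (adjusted p = 0.0095) and 0.91 for AF065433_g_at (adjusted p = 0.0078). However, the FB change of AF065433_g_at itself was cut to 0.08 at that floor. For AF065431_s_at, with all FB controls at the floor already, a higher floor lowers the FB change further. These calls therefore do not measure a difference between the populations.

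After IR, Bcl2l11 showed no call. AF065431_s_at read 17, 12.2 and the floor in IR-treated CM, against 27.1, 16.8 and 7.30 in CM controls. In FB it read 26.9, 23.0 and the floor after IR, with all 3 controls at the floor (adjusted p = 0.49), and no fold is given because both groups hold values at the floor. AF065432_s_at read 20.04, 22.2 and 21.6 in IR-treated FB, against 16.8, the floor and 18.5 in FB controls (adjusted p = 0.58). AF065433_at read 66.2, 78.0 and 62.4 in IR-treated FB, against 54.6, 35.8 and 51.1 in controls, with no overlap between the groups, at a change of 0.56 (SE 0.20, adjusted p = 0.58).

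The changes after UV and after IR were set against each other within a population. In CM the UV change was larger than the IR change by 3.05 for AF065431_s_at (SE 0.61, adjusted p = 0.0084) and by 2.91 for AF065433_g_at (SE 0.44, adjusted p = 0.0018). Among the 20 probe-sets, 3 had such a larger UV change in CM and none a smaller one, with 4.46% of all probe-sets called larger and 4.55% called smaller. In FB the excess was 1.86 for AF065433_g_at (SE 0.40, adjusted p = 0.0070), the only member called higher there, with 7.12% of all called so. With the floor at the 40th percentile that call was lost (adjusted p = 1), while AF065431_s_at (0.69, adjusted p = 0.0438) and AF065432_s_at (0.96, adjusted p = 0.0066) were called in FB, and AF065432_s_at was called in CM as well (1.39, adjusted p = 0.0023). Without the first experiment the CM calls were lost (adjusted p = 0.25 and 0.16), that of AF065431_s_at also with the array lot as a block, and the FB call was lost without the first (0.12) or second experiment (0.0703).

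After MS the CM values of AF065431_s_at overlapped, with 31.8, 31.2 and 28.8 in stretched CM, against 32.0, 33.8 and 30.4 in CM controls. In FB it read 15.0, 14.4 and 17 in stretched FB, against 23.3, 17.4 and 18.1 in FB controls, wholly below them at a change of -0.33 (SE 0.38, adjusted p = 1).

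Among controls, Bcl2l11 was higher in CM cultures than in FB cultures in part of the experiments. In the MS experiments the CM controls exceeded the FB controls by 1.25 for AF065432_s_at (46.2, 41.1 and 46.4 in CM, against 21.2, 22.5 and 13.8 in FB, adjusted p = 0.0051) and by 1.14 for AF065433_at (88.7, 132 and 133 in CM, against 57.3, 46.8 and 54.0 in FB, adjusted p = 0.0015). In the IR experiments AF065432_s_at differed by 0.93 (adjusted p = 0.0303), a call that was lost under 4 of 9 alternatives (highest adjusted p = 0.67). In the UV experiments no probe-set of Bcl2l11 was called between the controls, though AF065431_s_at was with arrays only scaled (1.39, adjusted p = 0.0279). The CM cultures of the MS experiments were not fractionated. Their controls had summed fibroblast markers of 33608 to 35305, against 40654 to 40729 in FB controls. The part of purity and of culture conditions in these differences was not tested.

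The genes whose 17 pair changes ran most like those of AF065433_at, among 6772 probe-sets of other genes with a mean above the floor, were Pcbp4 (r = 0.82), an RNA-binding protein of the poly(C) class, Bhlhe40 (r = 0.82), a transcriptional repressor of the circadian system, and Thop1 (r = 0.77), a peptidase. These are the highest of many correlations and are given as a description.

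The sequence before the start of Bcl2l11 and of Casp2 is shown because these were the genes with called changes in RNA level after UV. Both come from RefSeq (GRCr8), cover the 250 bases before the annotated start site, and are printed 5′ to 3′ on the strand of the gene. Capitals mark matches, on either strand, to GTAAACA (the forkhead or FOXO motif), GGGCGG (the GC box) and CCAAT (the CCAAT box). TGANTCA, a loose form of the AP-1 motif with any base at N, was searched as well.
Bcl2l11, chr3:135819792-135820041, plus strand: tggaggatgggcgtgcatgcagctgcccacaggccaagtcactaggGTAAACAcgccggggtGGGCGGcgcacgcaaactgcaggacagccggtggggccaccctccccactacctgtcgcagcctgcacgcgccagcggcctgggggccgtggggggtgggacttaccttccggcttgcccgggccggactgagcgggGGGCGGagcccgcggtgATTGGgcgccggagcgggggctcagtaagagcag
Casp2, chr4:72116107-72116356, plus strand: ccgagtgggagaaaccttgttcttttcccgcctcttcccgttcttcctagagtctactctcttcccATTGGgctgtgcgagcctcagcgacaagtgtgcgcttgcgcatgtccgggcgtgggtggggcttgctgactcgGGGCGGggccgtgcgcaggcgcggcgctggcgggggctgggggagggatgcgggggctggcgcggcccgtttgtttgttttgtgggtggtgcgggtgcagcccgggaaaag

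All 7 genes had a promoter entry, 10 entries in all. The motifs were searched only before the start site, over the same length as in the printed sequences. This held for the members and for all rat entries alike, and bases past the start site were not searched. The promoter of Bcl2l11 held the forkhead motif 204 bases before the start, GC boxes 188 and 51 bases before it, and a CCAAT box, in reverse, 34 bases before it. That of Casp2 held a GC box 111 bases and a reversed CCAAT box 184 bases before the start, and no forkhead motif. Elsewhere among the members, the forkhead motif was found in Bad (118 bases before the start), the GC box in Fas and Casp1, and the CCAAT box in 2 of the 4 entries of Bcl2l1. The loose AP-1 form was found in Fas alone (205 bases, as TGAATCA). Of 33469 rat promoter entries, 3.21% held the forkhead motif, 6.34% the loose AP-1 form, 30.5% the GC box and 34% the CCAAT box. The printed sequences are rich in G and C (72% for Bcl2l11 and 66.8% for Casp2, with a median of 51.2% over all entries). A match is a description of the letters and not a binding site.

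Casp2, on chromosome 4, encodes the initiator caspase that can be activated on the PIDD platform after DNA damage. It rose in CM after UV with 2 of its 3 probe-sets. U77933_at read 135, 179 and 149 in UV-treated CM, against 93.4 and 91.9 in CM controls, so that the groups did not overlap. These 2 controls were the lowest values of this probe-set on all 35 arrays. The change was 0.75 (SE 0.14, adjusted p = 0.0026), and it was lost without the second experiment (0.53, adjusted p = 0.14). U34684_s_at read 59.5, 27.7 and 31.8 after UV, against 19.0 and 15.0 in controls, a change of 1.26 (SE 0.37, adjusted p = 0.0343) that lost its call under 7 of 10 alternatives (highest adjusted p = 0.54). AF025671_s_at read 104, 62.1 and 25.8 in UV-treated CM and 26 and 52.9 in CM controls. Its groups overlapped, and the change was 1.11 (SE 0.60, adjusted p = 0.26).

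In FB, U77933_at read 117, 130 and 148 after UV, against 116, 146 and 140 in controls, a change of -0.03 (95% interval -0.27 to 0.22). The change in CM exceeded that in FB by 0.77 (SE 0.18, adjusted p = 0.0229). It was the only one of the 20 probe-sets whose UV change was called different between the populations, with 3.63% of all probe-sets called higher and 2.72% lower in this contrast. That call was lost without the pairing (adjusted p = 0.21) and without each of the 3 experiments (0.10, 0.32 and 0.0829). For the IR and MS changes none of the 20 was called different (0.0686% and 0% of all in either direction), and 3 and 1 were below an unadjusted p of 0.05 (8.66% and 4.18% of all). U34684_s_at read 30.2, 123 and 84.6 in UV-treated FB, against 27.1, 46.7 and 67.8 in FB controls (0.62, SE 0.30, adjusted p = 0.18).

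**Figure D3:**
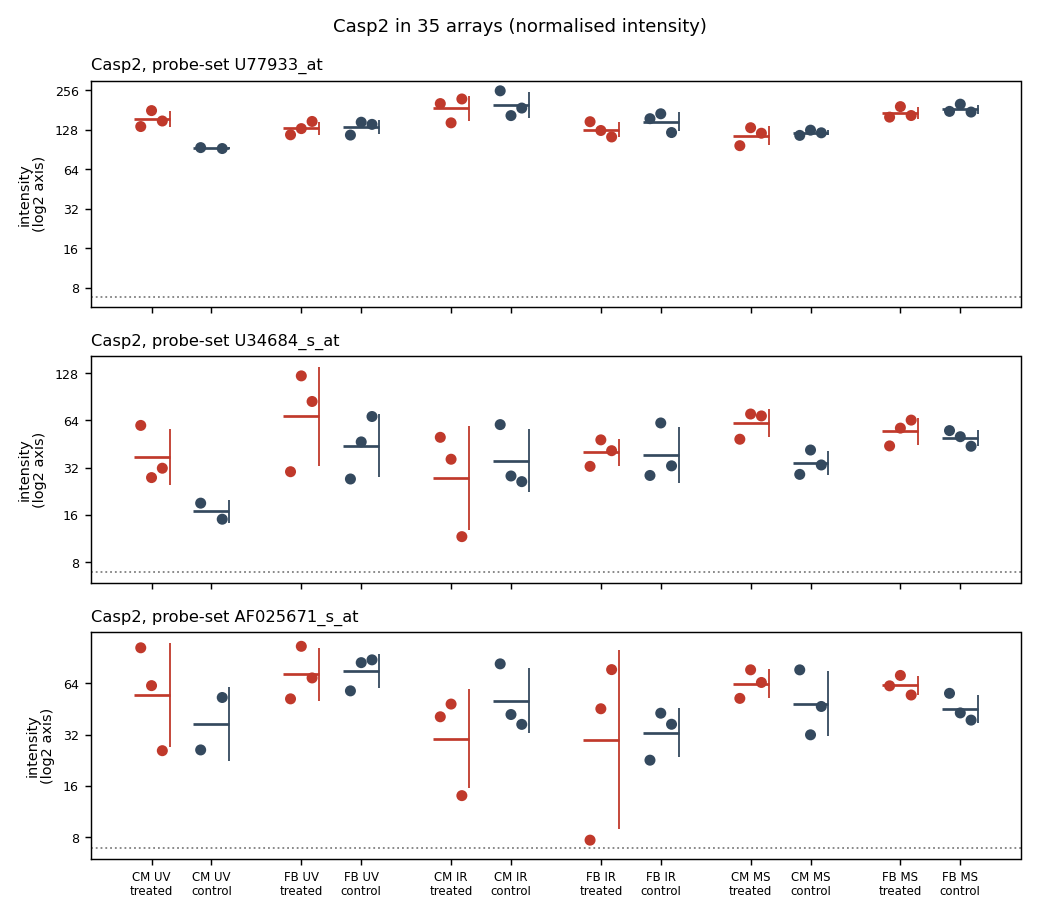
Normalised intensity of the 3 probe-sets of Casp2 (log2 axis) in all 35 arrays, with symbols as for Bcl2l11. For U77933_at the 3 UV-treated CM arrays lie at 135 to 179, above both CM controls, while UV-treated FB at 117 to 148 overlap their controls.

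The starting level of U77933_at differed between the populations. In the UV experiments it was lower in CM controls than in FB controls (93.4 and 91.9 in CM, against 116, 146 and 140 in FB, difference -0.53, adjusted p = 0.0295), and in the MS experiments the difference was -0.60 (116, 127 and 121 in CM, against 176, 200 and 174 in FB, adjusted p = 0.0080). In the IR experiments it pointed the other way (253, 164 and 187 in CM, against 155, 169 and 122 in FB, difference 0.43, adjusted p = 0.0522). UV-treated CM, at 135 to 179, overlapped with the FB controls of UV, at 116 to 146. For U34684_s_at the difference between the UV controls was -1.42 (adjusted p = 0.0454).

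After IR, U77933_at read 202, 144 and 219 in CM, against 253, 164 and 187 in CM controls, and the UV change in CM exceeded the IR change by 0.84 (SE 0.18, adjusted p = 0.0109), a call lost without the pairing (0.0854), without the first or second experiment (0.0919 and 0.23) and with the array lot as a block (0.0614). After MS, U34684_s_at read 48.6, 70.4 and 68.4 in stretched CM, against 29.0, 41.5 and 33.3 in CM controls, with no overlap, at a change of 0.85 (SE 0.30, unadjusted p = 0.0153 and adjusted p = 1 in limma). For the other probe-sets of Casp2 the groups overlapped after MS. The genes with pair changes most like those of U77933_at were Taf1c (r = 0.93), a subunit of the selectivity factor of RNA polymerase I, Gnl3 (r = 0.86), a nucleolar GTP-binding protein, and Armc6 (r = 0.85).

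Bcl2l1 encodes Bcl-xL, a survival protein of the outer mitochondrial membrane, and lies on chromosome 3. It had no called change in any of the 6 comparisons, yet 3 of its 4 probe-sets separated IR-treated FB from their controls. S78284_s_at read 255, 219 and 280 in IR-treated FB, against 157, 146 and 187 in FB controls, a change of 0.62 (SE 0.14, unadjusted p = 0.0010, adjusted p = 0.23 in limma). U34963_s_at read 212, 215 and 210 after IR, against 109, 142 and 152 in controls (0.68, SE 0.19, adjusted p = 0.41). U72350_at read 192, 141 and 167 after IR, against 81.4, 99.5 and 122 in controls (0.73, SE 0.25, adjusted p = 0.58). Each was higher in 3 of 3 pairs. In total, 5 of the 20 probe-sets were higher with no overlap in FB after IR, these 3 and AF065432_s_at and AF065433_at of Bcl2l11, where 2.39% of all probe-sets were so. They measure Bcl2l1 and Bcl2l11 alone, and probe-sets of the same gene are not independent.

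In CM after IR, U72350_at read 106, 102 and 75.6, against 32.8, 71.6 and 63.0 in CM controls, again without overlap (0.82, SE 0.25, adjusted p = 0.21), while S78284_s_at read 95.3, 110 and 55.6, against 91.5, 104 and 92.5. The difference in IR change between CM and FB was -0.82 for S78284_s_at (95% interval -1.27 to -0.38, adjusted p = 0.32). After UV, S78284_s_at stayed near its controls in FB (230, 316 and 249, against 273, 278 and 275), and the UV change in FB was smaller than the IR change (difference -0.69, SE 0.20, adjusted p = 0.0402). This was the only member called lower in that contrast, with 7.27% of all probe-sets called so, and it lost its call under 6 of 10 alternatives. The fourth probe-set, U72349_at, was at the floor on 20 of 35 arrays.

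**Figure D4:**
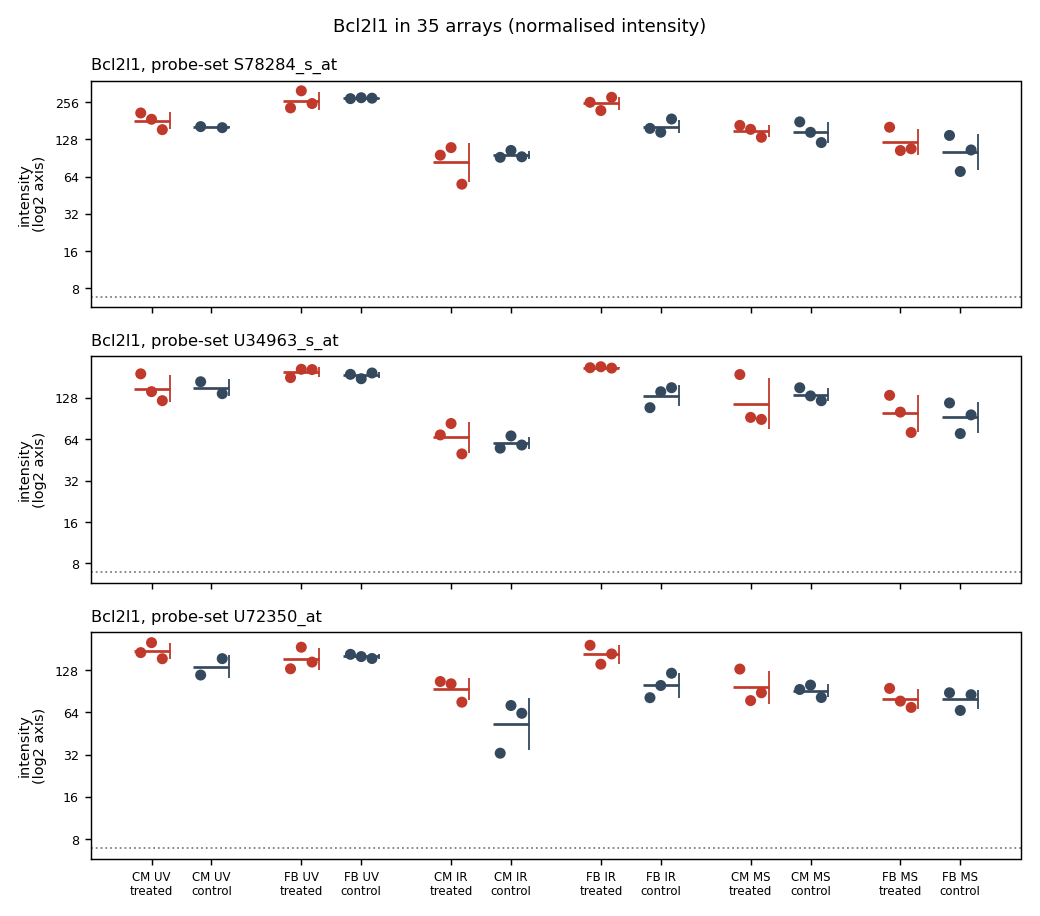
Normalised intensity of 3 probe-sets of Bcl2l1 (log2 axis) in all 35 arrays, with symbols as for Bcl2l11. IR-treated FB lie above their controls in all 3 panels (for U34963_s_at 210 to 215, against 109 to 152), and IR controls of CM lie below those of FB.

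Control levels of Bcl2l1 differed between the populations in a way that depended on the experiment. In the IR experiments CM controls were lower than FB controls by all 3 of these probe-sets, with differences of -0.76 (S78284_s_at, adjusted p = 0.0100), -1.14 (U34963_s_at, adjusted p = 0.0009) and -0.91 (U72350_at, adjusted p = 0.0087). In the UV experiments the call held for S78284_s_at (162 and 159 in CM, against 273, 278 and 275 in FB, difference -0.81, adjusted p = 0.0137) and for U72349_at, near the floor (-0.97, adjusted p = 0.0221). In the MS experiments S78284_s_at was not called (177, 146 and 121 in CM, against 138, 70.4 and 105 in FB, difference 0.54, adjusted p = 0.0744). CM cultures were not fractionated in the MS experiments. Their summed fibroblast markers were 33608 to 35305 in controls, against 17341 to 22062 in IR controls and 12206 to 17843 in UV controls of CM. The part of this in the Bcl2l1 levels was not tested. In the IR experiments the deposited scale and the cell population cannot be told apart. Over the members, CM controls were called higher than FB controls for 0, 1 and 3 probe-sets in the UV, IR and MS experiments, with 11.6%, 12.7% and 10.8% of all called so, and lower for 4, 4 and 2, with 12.5%, 13.6% and 13.3% of all. Among these calls that of U34963_s_at in the IR experiments was the only one kept under all its alternatives (highest adjusted p = 0.0457). All the others except that of Fas were lost with at least 1 of the experiments left out.

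Bcl2, the founding survival gene of the family, lies on chromosome 13. L14680_at was low throughout, between the floor and 26.3. In UV-treated FB it read the floor, the floor and 7.79, against 19.1, 16 and 18.4 in FB controls, with no overlap and a change of -1.31 (SE 0.45, adjusted p = 0.0536), lower in 3 of 3 pairs. In UV-treated CM it read the floor, 10.0 and 8.94, against 18.5 and 14.8 in CM controls (-0.99, SE 0.55, adjusted p = 0.27). The FB change fell on the other side of the threshold under 4 alternatives: without the pairing (adjusted p = 0.0486), with a random block (0.0158), with arrays only scaled (0.0259) and with a pseudocount (0.0097). L14680_g_at, with the same source sequence, read 59.8, 62.0 and 77.1 in UV-treated FB, against 62.6, 91.6 and 110 in FB controls (-0.38, SE 0.18, adjusted p = 0.16), lower in 3 of 3 pairs, and S74122_s_at did not move with it (0.05, SE 0.19). Over the 17 pairs, the changes of L14680_at and L14680_g_at correlated with r = 0.38, and those of S74122_s_at with r = 0.10 and 0.07 to these (a description).

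Between controls of the MS experiments, 2 probe-sets of Bcl2 were called in opposite directions: L14680_g_at was higher in CM (70.9, 122 and 67.9, against 62.4, 48.6 and 44.8 in FB, difference 0.71, adjusted p = 0.0345) and S74122_s_at was lower in CM (15.9, 16.2 and 16.1, against 28.0, 51.6 and 29.8 in FB, difference -1.13, adjusted p = 0.0089). No direction is therefore given for the gene.

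Bad, a BH3-only protein whose activity is set by phosphorylation, lies on chromosome 1. AF003523_s_at lay between 78.7 and 203 and rc_AA818072_s_at between 420 and 896 over the 35 arrays. Neither was called in any comparison of treatments or of control levels. Under some alternatives rc_AA818072_s_at was called lower in CM controls than in FB controls: in the IR experiments with arrays only scaled (-0.52, adjusted p = 0.0414) or without the third experiment (-0.62, adjusted p = 0.0052), and in the MS experiments among probe-sets above the 40th percentile (-0.48, adjusted p = 0.0452) or without the third experiment (-0.43, adjusted p = 0.0466). The interval of the UV change of rc_AA818072_s_at was -0.19 to 0.27 in CM and -0.13 to 0.24 in FB. The lowest value of AF003523_s_at, 78.7, was on the second UV-treated FB array, whose fellow arrays read 181 and 184.

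Casp1, on chromosome 8, encodes the inflammatory caspase. S79676_s_at read 44.6, 129 and 62.6 in UV-treated FB, against 22.5, 63.1 and 52.4 in FB controls (0.76, SE 0.30, adjusted p = 0.0963), higher in 3 of 3 pairs though the groups overlap. The other probe-sets, at the floor on 15 (U14647_at) and 14 (U14647_g_at) of 35 arrays, also had higher values after UV in 3 of 3 FB pairs, with changes of 0.51 and 0.77 (adjusted p = 0.12 in each). The lowest FB control of U14647_g_at was at the floor, so the size of its change depends on the floor. With the test limited to probe-sets above the 40th percentile, S79676_s_at passed the threshold (adjusted p = 0.0424). The immune markers Cd14 and Csf1r were called higher in the same FB arrays, and the other immune markers on the array were not called there. A link to Casp1 was not tested. In UV-treated CM, S79676_s_at read 35.5, 59.9 and 57.6, against 66.1 and 56.3 in CM controls (-0.40, SE 0.37), and the difference between the populations was -1.16 (95% interval -2.20 to -0.13, adjusted p = 0.19). After IR, U14647_g_at read 9.86, the floor and the floor in CM, against 20.2, 16.3 and 17.3 in CM controls (-1.20, SE 0.32, adjusted p = 0.15), whereas the groups of S79676_s_at overlapped (48.1, 34.1 and 36.0, against 75.2, 32.8 and 90.8). With a pseudocount, the UV change of U14647_g_at in CM was called larger than its IR change (1.03, adjusted p = 0.0430), which it was not in the main fit. After MS, S79676_s_at read 43.8, 37.5 and 37.3 in stretched FB, against 28.8, 27.1 and 35.2 in FB controls, with no overlap (0.39, SE 0.30, adjusted p = 1), and U14647_at was wholly lower in stretched CM (-0.53, SE 0.21, adjusted p = 1).

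Fas, on chromosome 1, had 1 probe-set, D26112_s_at, which was at the floor on 28 of 35 arrays, including all of the UV and MS experiments, so that no change could be seen there. After IR it read the floor, 11.1 and 12.7 in CM with all 3 controls at the floor (adjusted p = 0.44), so that no fold is given. In FB it read 15.4, the floor and 46.8 after IR, against 11.6, 15.9 and 36.7 in FB controls. Between the IR controls, the CM level was at least 2.75-fold lower than that of FB (adjusted p = 0.0048), a call lost with the floor at the 40th percentile (adjusted p = 0.42).

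**Figure D5:**
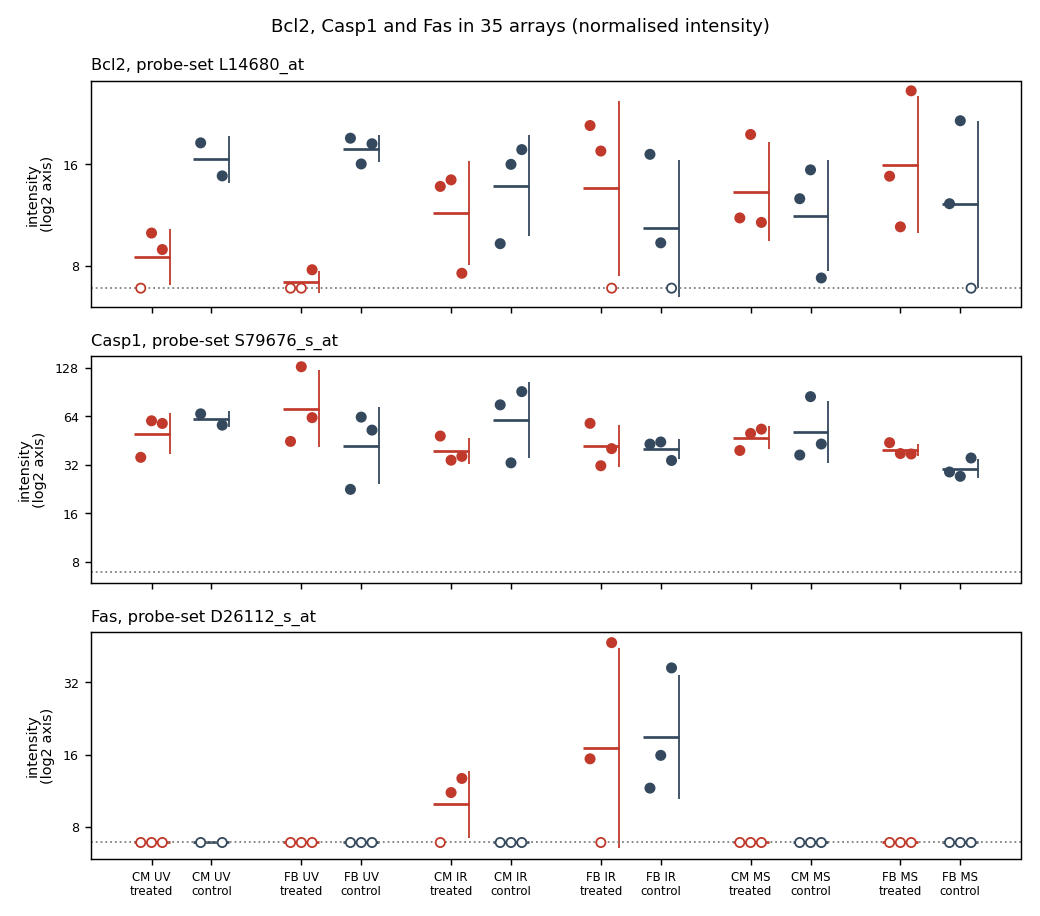
Normalised intensity of 1 probe-set each of Bcl2, Casp1 and Fas (log2 axis) in all 35 arrays, with symbols as for Bcl2l11. L14680_at of Bcl2 is at or near the floor in UV-treated FB, against 16 to 19.1 in their controls, S79676_s_at of Casp1 overlaps between the UV groups, and Fas is off the floor in IR arrays alone.

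The 3 probe-sets that carry both Bax and LOC681314 cannot be assigned to Bax, the effector that permeabilises mitochondria, alone. Among them U59184_at was the single probe-set called after IR: it read 2157, 1631 and 1985 in IR-treated CM, against 1269, 995 and 1361 in CM controls, a change of 0.67 (SE 0.09, adjusted p = 0.0024), higher in 3 of 3 pairs. The call was lost with each of the 3 experiments left out in turn and with the array lot as a block (highest adjusted p = 0.14). S76511_s_at read 413, 370 and 440 in IR-treated FB, against 434, 367 and 368 in FB controls, and was not called in CM after IR (0.31, SE 0.18). After UV, S76511_s_at read 634, 462 and 728 in FB, against 379, 397 and 428 in FB controls (0.58, SE 0.18, adjusted p = 0.0324), a call lost without the first or the third experiment and without the pairing (highest adjusted p = 0.27). In CM after UV, U49729_at had a change of 0.58 (SE 0.20, adjusted p = 0.0647). All 3 were lower in CM controls than in FB controls of the UV experiments, with differences of -0.65, -1.35 and -0.89 for S76511_s_at, U49729_at and U59184_at (adjusted p = 0.0446, 0.0001 and 0.0001). The last 2 of these calls were kept under all 9 alternatives. In the IR experiments U49729_at and U59184_at were also called lower in CM controls than in FB controls. There the call of U49729_at was kept under all 9 alternatives, and that of U59184_at was lost without the second experiment. In the MS experiments U59184_at was called lower in CM controls too, a call lost under 3 of 9 alternatives.

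Other genes of the pathway were taken from fixed lists, of which only part had a probe-set with a single symbol. For a gene with several probe-sets, a call needed at least 50% of them. Of all 4736 genes, 10.2% rose and 9.21% fell in CM after UV by this rule, and 13.9% rose and 13.0% fell in FB, and after IR 0.359% rose in CM and 0.0422% in FB. Lists this short are described only. Of 13 other BCL-2 family genes 6 were on the array, and after UV 1 rose in CM and 2 rose in FB, with none lower. Bak1, an effector like Bax, rose by 0.62 in CM (adjusted p = 0.0373) and by 0.54 in FB (adjusted p = 0.0204). Bok, a further effector, rose in FB with both probe-sets (0.83 and 0.58, adjusted p = 0.0071 and 0.0096), and its UV change was lower in CM than in FB (-1.23 and -1.08, adjusted p = 0.0345 and 0.0142). Its CM controls lay above its FB controls in the UV experiments (by 2.26 and 1.64, adjusted p = 4.8e-06 and 1.5e-05). A single probe-set of Hrk, a BH3-only gene, was called in FB (1.31, adjusted p = 0.0058), too few for a call of the gene. The median change of these 10 probe-sets was 0.07 in CM and 0.37 in FB.

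Of 7 other caspases only Casp6, an executioner caspase, was on the array. Both of its probe-sets rose after UV, by 1.05 and 1.20 in CM (adjusted p = 0.0047 and 0.0231) and by 1.13 and 1.32 in FB (adjusted p = 0.0004 and 0.0025). Of 12 death receptors, ligands and adaptors 6 were on the array. None was called in CM after UV and 1 rose in FB: Tnfrsf1b, a receptor of tumour necrosis factor (1.33, adjusted p = 0.0023), with a UV change lower in CM than in FB (-1.57, adjusted p = 0.0435).

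Of 16 genes of the apoptosome, its inhibitors and other death effectors 4 were on the array. After UV 1 rose and 1 fell in CM, and 3 rose and 1 fell in FB, at the shares of all genes given above. Birc2, a ubiquitin ligase of the inhibitor-of-apoptosis family, rose by 2.62 in CM and by 1.86 in FB (adjusted p = 0.0024 and 0.0033), and Pawr, a pro-apoptotic leucine-zipper protein, fell by 1.57 in CM and by 1.71 in FB (adjusted p = 0.0007 and 3.3e-05). In FB the mitochondrial proteins Diablo (0.71, adjusted p = 0.0010) and Aifm1 (0.49, adjusted p = 0.0325) rose too. Of 7 substrates and regulators of caspase-1, 4 were on the array and 1, the transcription factor Irf1, rose after UV in both populations, by 2.31 and 1.65 in CM and by 1.5 and 1.16 in FB. Il1b, Il18 and Il1rn were not called.

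Of 10 genes of the p53 pathway 5 were on the array, and 4 rose in each population after UV, 2 in CM after IR and none in FB after IR, where 10.2% and 13.9% of all genes rose in CM and FB after UV and 0.359% and 0.0422% after IR. For Mdm2, the ligase that degrades p53, the probe-sets called after UV rose by 2.41 and 2.50 in CM and by 2.49 and 2.76 in FB. Not every probe-set of Mdm2 was called. After IR the changes of Cdkn1a (U24174_at, 1.73, adjusted p = 0.0025), the cell cycle inhibitor p21, and of Ccng1 (0.71, adjusted p = 0.0018) were called in CM, as was 1 probe-set of Mdm2 (1.08). That probe-set of Mdm2 was also called in FB after IR (1.12, adjusted p = 0.0112). Apart from these p53 pathway genes, no gene of the lists was called after IR, and none of any list after MS.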

How the data were processed

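Total RNA of 35 cultures was hybridised to 1 Affymetrix rat array each. The deposited values are linear probe-set intensities; which software the authors used to summarise them is not given in the sources used here, and the probe-level model of the methods is not in them. A common trimmed mean, different between 26 and 9 arrays, was inferred from the values. The 59 control probe-sets were left out, arrays were scaled to one 75th percentile, values floored at the 20th percentile (6.88), put on a log2 scale and quantile normalised. Changes were fitted with limma 3.58.1 (R 4.3.3, variance trend, 11 residual degrees of freedom) over all arrays with the numbered experiment as a block (two-sided tests), as the study's model has an experiment term, and control levels with that block random (correlation 0.31). Numbers came from the titles, a title without one being taken as 1; deviations of the members of a pair correlated between 0.06 and 0.80, over 0.1 in 15 of 17 pairs. Spearman's rho between replicates was 0.92 to 0.98. The study calls its experiments independent; p-values measure the spread between these cultures. Scanner records gave the scan for 16 arrays, and the array lot for the CM arrays among them alone. In the IR experiments all CM controls were of lot 2 and scan 2. Of the IR-treated CM arrays, 1 and 3 were of lot 1, and array 3 was also of scan 1. Treatment cannot be fully told apart from lot and scan there. Members, lists and rules were chosen with earlier results of these data known. Described at most length were members with a call, and Bax, Fas and Casp1, though not in every comparison or alternative. Of the lists, at most 4 called genes a comparison were named, by smallest p. Figures used matplotlib 3.10.9. Alternatives are given below.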

Additional observations from a re-analysis of the deposited data

Results flagged for a closer look

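The UV change of Casp2 by U77933_at differed between the populations by the test of the difference itself: it was higher in CM than in FB by 0.77 on the log2 scale (adjusted p = 0.0229). UV-treated CM read 135, 179 and 149, against 93.4 and 91.9 in CM controls, and UV-treated FB read 117, 130 and 148, against 116, 146 and 140 in FB controls. By this probe-set the CM controls were lower than the FB controls (difference -0.53). The call of the difference in UV change was lost without the pairing and with each experiment left out in turn.

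By the same test the UV change of Bok was lower in CM than in FB by both probe-sets, with differences of -1.23 (AF027954_at, adjusted p = 0.0345) and -1.08 (AF027954_g_at, adjusted p = 0.0142). The UV change of Tnfrsf1b was lower in CM than in FB as well, with a difference of -1.57 (adjusted p = 0.0435). In the UV experiments the CM controls of Bok lay above its FB controls, by 2.26 (AF027954_at, adjusted p = 4.8e-06) and 1.64 (AF027954_g_at, adjusted p = 1.5e-05). The alternatives were not followed for Bok or Tnfrsf1b. What lies behind these differences was not tested. With 2 or 3 arrays a group, single arrays were not screened for outlying values.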

How the results depend on the processing

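Leaving out an experiment dropped its arrays from all groups at once. In FB after UV, 4 member probe-sets were called, and 2 to 4 with 1 experiment left out. In CM after UV, 6 were called, and 1 to 4 with 1 experiment left out: 1 without the first, 3 without the second and 4 without the third. The other alternatives gave 4 to 6 in CM and 3 to 5 in FB. No call was made after IR or MS under any alternative run. Without the replicate block (the pairing), 4 were called in CM and 4 in FB after UV, none for the UV difference between CM and FB (1 with the block), and 1 for UV against IR in FB (2 with the block). The UV difference between CM and FB gave 3 calls with the floor at the 40th percentile (U77933_at of Casp2, and AF065431_s_at and AF065433_g_at of Bcl2l11) and 0 with any 1 experiment left out. The calls of Bcl2l11 do not measure a difference, because that floor cuts the FB changes. UV against IR in CM, with 3 calls, gave 5 with a pseudocount of 16, 1 with the array lot as a block and 1 to 3 with 1 experiment left out. UV against IR in FB, with 2 calls, gave 1 among probe-sets above the 40th percentile and 0 to 1 with 1 experiment left out. Control levels gave 4 calls in the UV experiments (2 with a pseudocount, 2 with the higher floor, 0 to 2 with 1 experiment left out), 5 in the IR experiments (3 with the higher floor, 3 to 7 with 1 experiment left out) and 5 in the MS experiments (1 to 4 with 1 experiment left out). No called change turned its direction under any alternative. The causes were not tested. The small number of arrays limits the precision, and for probe-sets with many values at the floor, chiefly Fas, U72349_at and U14647_at and U14647_g_at of Casp1, the size of a change depends on the floor.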
